A study of Mus musculus with 11 samples.

Results

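The mitochondrially encoded RNAs are the transcripts of the mitochondrial genome itself. Their genes were found as the rows of the count table whose symbol begins with mt- or with mt followed by a capital letter, which gave 37 of 18305 genes: 2 rRNA genes, 13 protein-coding genes and 22 tRNA genes. RNA of 27 libraries in 8 groups was measured by CEL-Seq2, a bulk method that primes on poly(A) tails, copies the material linearly as RNA and sequences one end of each transcript. Bulk oviduct tissue, bulk OSE (ovarian surface epithelium) tissue and the organoids grown from each came from wild-type C57BL/6 mice. Cas9-GFP organoids came from the oviducts of mice with a Cas9-P2A-EGFP cassette in the ROSA26 locus, expressed ubiquitously. The TBP clones are clonal organoids picked from such cultures after transfection with sgRNAs, Trp53 and Brca1 among the targets, and selection with Nutlin-3a, which spares cells that lack p53. The TBP tumors grew from TBP clones under the skin of immunodeficient NSG mice, so that they also hold host cells. The 4 tumor-derived organoid lines were regrown from tumors under Nutlin-3a, T1-mes and T3-mes from tumors of mixed epithelial and mesenchymal-like shape and T2-epi and T4-epi from tumors of epithelial shape. The paper traces the 4 lines to the same original TBP clone and shows T1-mes and T2-epi as left and right tumors of a mouse. The lines are therefore not unrelated samples. The oviductal, OSE and tumor-derived organoids are separate lines. An oviductal or OSE line was set up from the pooled organs of several mice, and a tumor-derived line from a piece of a tumor. The columns number the clones and tumors. For the Cas9-GFP organoids the labels do not say whether the libraries are separate lines. For the tissues, clones and tumors the labels do not tie libraries to separate animals. The tests below therefore measure the spread between these libraries.

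The mouse mitochondrial genome is a small circle that encodes 2 rRNAs of the mitochondrial ribosome, 13 subunits of the respiratory chain and ATP synthase, and the tRNAs needed to translate them. Both strands are transcribed as long precursors that are cut at the tRNAs, and most mRNAs then receive a short poly(A) tail that also completes some stop codons. The rRNAs carry very short tails or none, and their level is set by transcription, processing, ribosome assembly and decay. The share of mitochondrial RNA differs widely between tissues and is also read as a measure of library quality.

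TBP clone 1 had the fewest counts, 82239, followed by a library with 600579, and TBP clone 3 the most, 4531767. A count of 0 allows up to 3 counts, which is 36.5 CPM (counts scaled to a common library total) in TBP clone 1 and between 0.662 and 4.995 CPM in the other libraries. Counts are reads without correction for amplified copies, so that intervals and limits derived from them cover counting error only. Trp53 had 33.3 to 58.1 CPM in the Cas9-GFP organoids, 0, 0.487 and 4.85 CPM in TBP clones 1, 2 and 3, and 4.39 to 9.31 CPM in the tumor-derived organoids. The markers of other cell types differed between groups. In OSE tissue the summed level of 7 granulosa and steroidogenic markers was 11602 to 13305 CPM against 53.8 to 249.7 CPM in oviduct tissue, and the 7 epithelial markers summed to 412 to 515 CPM against 1490.2 to 1854 CPM. In the tumors, 7 fibroblast markers summed to 10715 to 65618 CPM, 6 myeloid markers to 318 to 1013 CPM and 7 epithelial markers to 198 to 3014 CPM. In the organoids without mutations and the TBP clones the 7 fibroblast markers summed to between 0 and 50.5 CPM, with Col1a2 and Lum at 0, and the 6 smooth muscle markers to at most 5.66 CPM. Tissues and tumors were extracted with Trizol and organoids with a column kit, so that in any comparison of tissue or tumor with organoids the extraction and the biology cannot be told apart.

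Each of the 37 genes was matched to GENCODE vM21 on chromosome M of GRCm38, the build the authors aligned to. The 2 rRNA genes lie on the heavy-strand transcript (plus strand), with the tRNA gene mt-Tv at positions 1025 to 1093 between them. mt-Rnr1 (12S rRNA, small ribosomal subunit) lies at positions 70 to 1024 and mt-Rnr2 (16S rRNA, large subunit) at 1094 to 2675. Because the method primes on runs of A, the 20 bases richest in A are shown in capitals for both rRNAs and for mtNd5, with 5 bases on each side, from positions 720 to 749, 1483 to 1512 and 12618 to 12647:
mt-Rnr1: taagcAAAAGAATCAAACATAAAAAcgtta
mt-Rnr2: ttgctAAAAAAACAACAAAATCAAAaagta
mtNd5: ctcacCCAAAACGACATCAAAAAAAtcatt
These windows hold 15, 16 and 13 A. The richest windows of mtAtp8 and mtNd2 held 14 A and those of mtCo2, mtCytb and mtNd4 13 A, so that mtNd5 was not set apart by this measure. Over the 15 rRNA and protein-coding genes the richest window held between 8 A (mtNd6) and 16 A (mt-Rnr2), and mt-Rnr2 also had 4 runs of 6 or more A, more than any of the others. Whether reads began at these runs was not tested, since the table holds gene totals only. The 3′ ends of the protein-coding genes are of 2 kinds. In 10 of the 13 the gene ends in a complete stop codon, and in mtCo3, mtNd4 and mtCytb it ends in a lone T, shown in capitals after the 29 bases before it, which becomes a stop codon only with the tail:
mtCo3: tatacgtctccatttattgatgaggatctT
mtNd4: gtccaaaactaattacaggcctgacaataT
mtCytb: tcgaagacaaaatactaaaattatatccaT
Neighbours overlap by 43 bases between mtAtp8 and mtAtp6 and by 7 bases between mtNd4l and mtNd4, each pair on the same strand and in one shared transcript, so that the division of reads within these pairs is uncertain. mtNd5 and mtNd6 overlap by 14 bases on opposite strands, and the counting kept reads of the transcribed direction only.

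Mitochondrial counts made up 6.74% to 29.4% of the library total. They were 17.8%, 16.1% and 19.3% in oviduct tissue (17.7% ± 1.58, mean ± SD, n = 3) and 6.74%, 11.5% and 10.6% in OSE tissue (9.59% ± 2.51, n = 3). Oviductal organoids had 27.6%, 29.4% and 26.5% (27.8% ± 1.46, n = 3), and the 2 OSE organoid lines had 21.7% and 22.3%. Organoids thus lay above the tissue of their origin in every library, and the 2 tissues did not overlap. Cas9-GFP organoids had 18.2%, 20.0045% and 23.0% (20.4% ± 2.42, n = 3), TBP clones 17.5%, 23.0% and 18.4% (19.6% ± 2.93, n = 3) and the tumor-derived lines T1-mes, T2-epi, T3-mes and T4-epi 10.9%, 18.6%, 19.2% and 16.2% (16.2% ± 3.75, n = 4). These 3 groups overlapped. The tumors ranged from 10.9% to 17.9% with a median of 13.4% (13.5% ± 2.53, n = 6). The 95% binomial (Wilson) interval of each share was at most 0.202 percentage points wide in the other 26 libraries, and in TBP clone 1 it ran from 17.3% to 17.8%. In bulk libraries, fewer cells with many mitochondria and less mitochondrial RNA per cell cannot be told apart.

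**Figure D1:**
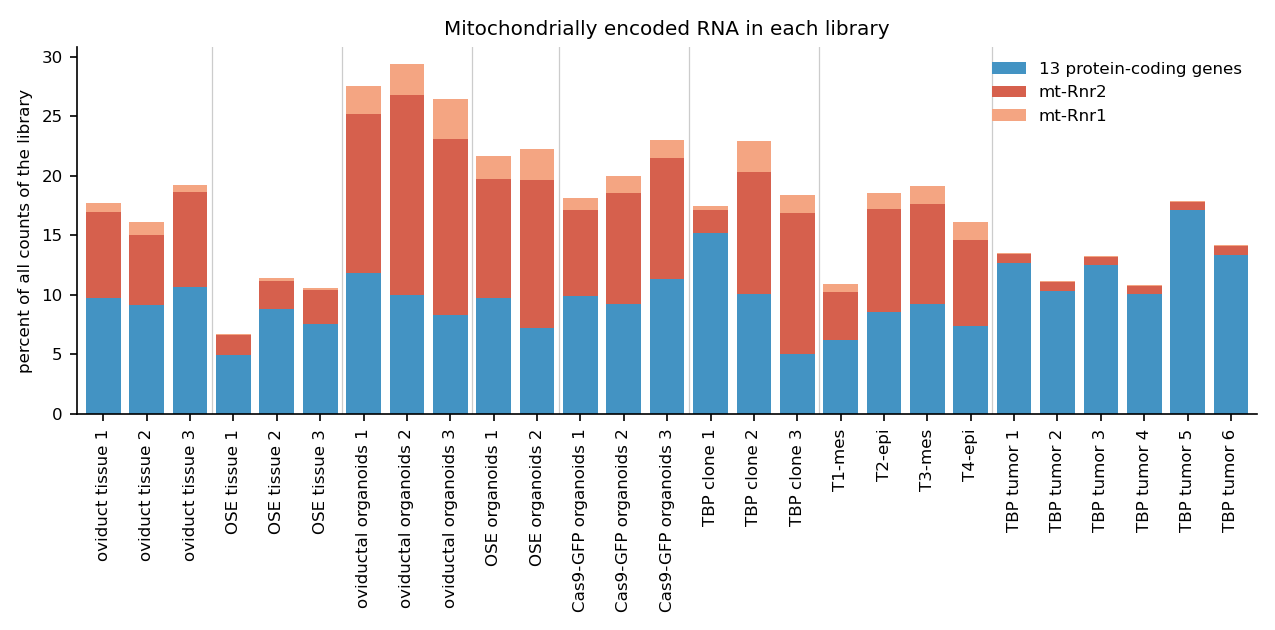
Percent of all counts of each of the 27 libraries that fell on the 13 protein-coding mitochondrial genes (blue), mt-Rnr2 (red) and mt-Rnr1 (light orange); grey lines separate the groups, and the tRNA genes, at most 101 CPM, are too low to be drawn. The red and orange parts are small in the 6 TBP tumors, where the rRNA took 4.06% to 7.43% of the mitochondrial counts, and in TBP clone 1, where it took 13.02%.

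Over the 27 libraries the protein-coding genes took 4.98% to 17.1% of all counts, and the rRNA 4.06% to 72.7% of the mitochondrial counts. The 13 protein-coding genes took 9.85% ± 0.792 of all counts in oviduct tissue (n = 3), 10.04% ± 1.78 in oviductal organoids (n = 3), 10.2% ± 1.11 in Cas9-GFP organoids (n = 3), 10.1% ± 5.11 in TBP clones (n = 3) and 12.7% ± 2.56 in tumors (n = 6). The share was 7.13% ± 1.96 in OSE tissue (n = 3), 7.24% and 9.71% in the 2 OSE organoid lines and 7.87% ± 1.32 in tumor-derived organoids (n = 4). OSE tissue thus had the lowest group mean of the protein-coding share beside its low rRNA, while the tumors were low in rRNA only. The OSE tissue libraries, at 4.98%, 8.81% and 7.59%, overlapped the oviductal, OSE and tumor-derived organoids and the TBP clones in the protein-coding share. With the rRNA genes left out of numerator and denominator, the mean mitochondrial share was highest in the tumors, 12.8%, and lowest in OSE tissue, 7.32%, and the tumors overlapped every organoid group and oviduct tissue. The rRNA share of the mitochondrial counts was 43.3% to 45.3% in oviduct tissue, 23.1% to 28.1% in OSE tissue, 56.9% to 68.6% in oviductal organoids, 55.2% and 67.5% in OSE organoids and 45.5% to 53.9% in Cas9-GFP organoids. It was 42.9% to 54.0% in the 4 tumor-derived lines and 4.06% to 7.43% in the 6 tumors. Expressed as counts on the rRNA genes for each count on a protein-coding gene, the ratio was 0.798 ± 0.0312 in oviduct tissue, 0.348 ± 0.0461 in OSE tissue, 1.82 ± 0.445 in oviductal organoids, 1.04 ± 0.199 in tumor-derived organoids and 0.0651 ± 0.0139 in tumors. The tumors therefore lay below every other library, and OSE tissue below every library but the tumors and TBP clone 1. The TBP clone libraries were unlike each other: the rRNA share was 13.02% in clone 1, 56.2% in clone 2 and 72.7% in clone 3, with ratios of 0.15, 1.28 and 2.66. Clone 1 is the shallowest library. Without it the mean ratio of the clones was 1.97 in place of 1.37.

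Within the rRNA, mt-Rnr2 had the higher count in each library, and per kilobase of gene it had 44589 CPM in oviduct tissue against 8503 CPM for mt-Rnr1. The ratio of mt-Rnr2 to mt-Rnr1 counts was 3.96 in TBP clone 2 at the lowest and 14.6 in OSE tissue 3 at the highest. It was 13.5, 8.21 and 14.6 in OSE tissue and 9.44, 5.50 and 13.5 in oviduct tissue, against 4.46 to 6.76 in the oviductal, OSE and Cas9-GFP organoids, so that oviduct tissue overlapped the organoids and OSE tissue did not.

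Nuclear rRNA was low in the libraries with little mitochondrial rRNA. Rn45s, the locus of the 45S precursor of the cytoplasmic rRNAs, is the one nuclear rRNA locus of the list that the table holds. It had 101 to 655 CPM in the tumors, 137 to 411 CPM in OSE tissue and 280 CPM in TBP clone 1, the same libraries in which the mitochondrial rRNA share was 28.1% or lower. In each of the other 17 libraries it had between 1838 and 8597 CPM, and there the mitochondrial rRNA share was 42.9% or more. The 2 sets did not overlap in either measure. Within groups the relation was mixed. In oviductal organoids 1 to 3 Rn45s had 1838, 4670.0 and 3318 CPM and the mitochondrial rRNA took 15.7%, 19.4% and 18.2% of all counts, and in Cas9-GFP organoids 2966, 4171 and 4718 CPM went with 8.28%, 10.8% and 11.6%, the same order in both groups. Oviduct tissue 2 had the highest Rn45s of all libraries, 8597 CPM, and the lowest mitochondrial rRNA of its group, 6.99% of all counts. The part of Rn45s in the differences of mitochondrial rRNA described here was not tested.

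**Figure D2:**
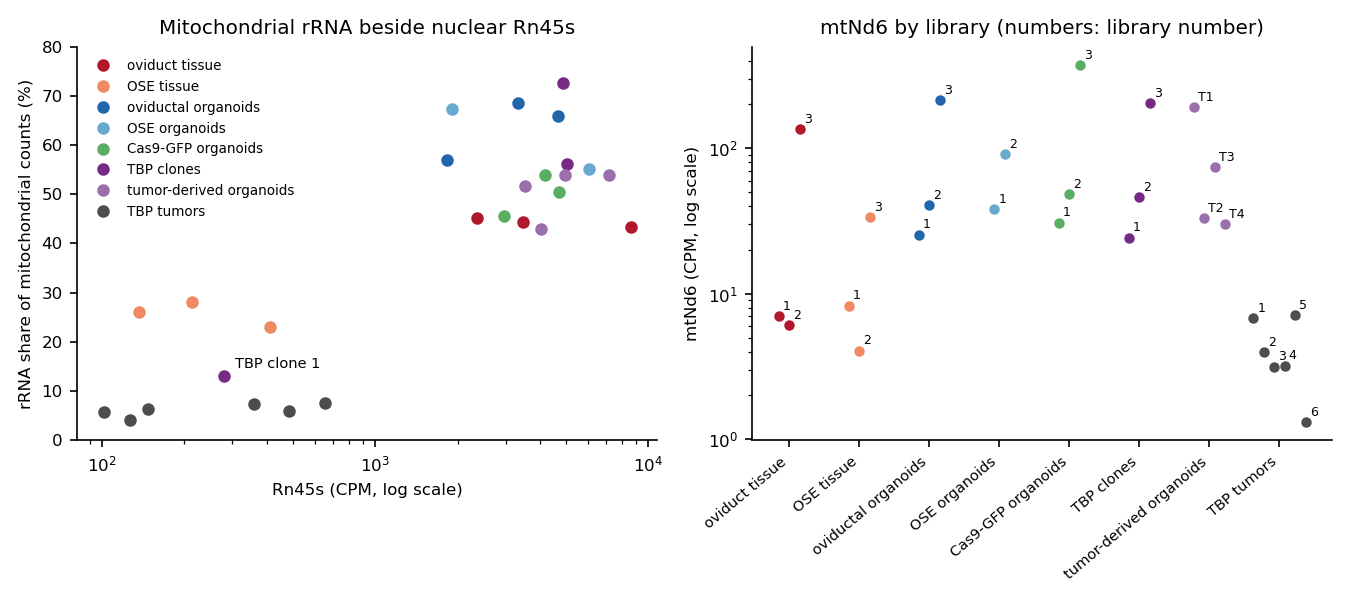
Left, rRNA share of the mitochondrial counts (percent) against Rn45s (CPM, log scale) for the 27 libraries, coloured by group; the tumors, OSE tissue and TBP clone 1 lie at 28.1% or lower and at 655 CPM of Rn45s or less, apart from the rest. Right, mtNd6 (CPM, log scale) by group, each point a library with its number beside it; number 3 is the highest in each group of 3 and the tumors have at most 7.13 CPM.

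The first comparison asked how the 2 tissues of origin differ. Oviduct tissue was higher than OSE tissue in both rRNA genes and in 10 of the 12 protein-coding genes that passed the filter on low counts. mt-Rnr2 made up 7.27%, 5.91% and 7.98% of the counts of oviduct tissue against 1.64%, 2.36% and 2.78% in OSE tissue, and mt-Rnr1 0.770%, 1.07% and 0.592% against 0.121%, 0.287% and 0.190%. All oviduct values lay above all OSE values. The log2 fold change was 2.00 (SE 0.28, adjusted p = 2.6e-05) for mt-Rnr2 and 2.39 (SE 0.31, adjusted p = 1.4e-05) for mt-Rnr1 in edgeR's quasi-likelihood test, with Benjamini-Hochberg adjustment over all genes tested. Rn45s differed in the same direction (log2 fold change 4.62, adjusted p = 1.6e-06), and its part in the result was not tested. The markers of other cell types also moved in this comparison. All 5 ciliated markers (430.5 to 725 CPM in sum against 1.04 to 8.12 CPM), all 6 smooth muscle markers (5208 to 6172 CPM against 598 to 910.3 CPM) and all 7 epithelial markers were higher in oviduct tissue and all 7 granulosa and steroidogenic markers lower, and their part was not tested either. mtNd5, a core subunit of complex I, moved as much as the rRNA: it had 6711, 5100 and 8378 CPM in oviduct tissue and 1004, 1753 and 1698 CPM in OSE tissue, a log2 fold change of 2.54 (SE 0.26, adjusted p = 1.2e-06). mtAtp8, a small subunit of ATP synthase, differed by 1.55 on the log2 scale (SE 0.22, adjusted p = 3.2e-05). The other 8 called genes differed by 0.70 to 0.97, and mtNd1 (log2 fold change 0.51, adjusted p = 0.081) and mtNd4l (0.21, adjusted p = 0.49) did not pass. mtNd6 and the tRNA genes were too low to be tested. Of all 8787 genes tested, 26.9% were higher and 24.3% lower in oviduct tissue. Over the 14 members the median log2 fold change was 0.79 against 0.00 over all genes tested. These values are relative to TMM factors. With library totals alone the median of all genes shifted by -0.37 and 5 members were called instead of 12, each of them higher in oviduct tissue, mt-Rnr1, mt-Rnr2, mtNd5, mtAtp8 and mtNd3.

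Organoids were next compared with their tissue. In oviductal organoids mt-Rnr2 took 13.3%, 16.8% and 14.8% of all counts and mt-Rnr1 2.35%, 2.56% and 3.33%, all above oviduct tissue. The log2 fold changes were 1.196 (SE 0.22, adjusted p = 0.00084) and 1.86 (SE 0.25, adjusted p = 8.1e-05). Rn45s did not pass here (log2 fold change -0.43). All 6 smooth muscle, 7 fibroblast, 5 endothelial and 5 ciliated markers were lower in the organoids and 5 of 7 epithelial markers higher, and their part in the result was not tested. The protein-coding genes moved apart from each other. mtCo1 and mtCo2, catalytic subunits of complex IV, rose by 1.05 and 0.87 on the log2 scale (adjusted p = 0.00062 and 0.0017), mtNd5 by 0.90, mtAtp6 by 0.71 and mtAtp8 by 0.59, while the complex I subunits mtNd4 and mtNd3 had log2 fold changes of -0.87 (adjusted p = 0.0065) and -0.61 (adjusted p = 0.020). mtNd4 had 31329 to 32818 CPM in the 3 oviduct tissue libraries and 11602 to 18866 CPM in the 3 organoid libraries, with no overlap. Of the 17 members tested 7 were higher and 2 lower, beside 18.7% and 24.2% of the 9477 genes tested. In a fit of all 27 libraries 4 of the 9 were called, and mtAtp6, mtAtp8, mtNd5 and the 2 decreases were not (adjusted p = 0.087 for mtNd4 and 0.22 for mtNd3).

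OSE organoids had more rRNA than OSE tissue, with log2 fold changes above those of the oviduct. mt-Rnr2 took 10.1% and 12.4% of the counts and mt-Rnr1 1.92% and 2.65%, against at most 2.78% and 0.287% in OSE tissue. The log2 fold changes were 2.74 (SE 0.41, adjusted p = 0.0035) for mt-Rnr2 and 3.93 (SE 0.46, adjusted p = 0.0016) for mt-Rnr1. Rn45s rose as well (4.41, adjusted p = 0.0037). All 7 fibroblast and 7 granulosa and steroidogenic markers were lower and 6 of 6 tested epithelial markers higher, and the part of these genes was not tested. mtNd5 rose from 1004 to 1753 CPM in tissue to 7837 and 5760 CPM in organoids, a log2 fold change of 2.63 (SE 0.37, adjusted p = 0.0029). mtAtp8 (2.16), mtNd6 (2.35) and mtAtp6 (1.24) also rose, and mtNd4 had a log2 fold change of -0.08 (adjusted p = 0.91). The call of mtNd6 was near the threshold (adjusted p = 0.049) and rested on 8, 3 and 57 counts in OSE tissue. OSE tissue 3 had 33.4 CPM of it and OSE organoids 1 had 38.2 CPM. Of the 19 members tested 9 were higher, 3 of them tRNA genes, and 0 lower, beside 14.5% and 18.6% of the 10232 genes tested. The 6 protein-coding and rRNA members among the 9 and the tRNA genes mt-Tc, mt-Tq and mt-Tw rest on 2 organoid libraries, and leaving out OSE tissue 2 gave 4 calls, all of them increases. Leaving out OSE organoids 1 or OSE organoids 2 leaves a lone organoid library, which is assumed to vary like the tissue libraries. Without OSE organoids 1 not every call was an increase. With library totals alone the median of all genes shifted by -0.43 and 6 members were called instead of 9.

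The change from tissue to organoids differed between the 2 origins. In a fit of the 4 wild-type groups with an interaction term, added after the data had been seen, 4 of 20 members had a smaller change in oviduct than in OSE: mt-Rnr1 by -1.98 on the log2 scale (adjusted p = 0.023), mtNd5 by -1.62 (adjusted p = 0.042), mtAtp8 by -1.46 (adjusted p = 0.041) and mt-Rnr2 by -1.44 (adjusted p = 0.040). Over all 11458 genes tested 5% had a positive and 6.68% a negative interaction. Between the organoids themselves, oviductal against OSE, 0 of 22 members tested were called by edgeR in either direction, beside 0.0864% of the 9257 genes tested that were higher and 0% lower, and 2 members had an unadjusted p under 0.05. DESeq2 called 1 member, mtCo1, with a log2 fold change of 0.90 (adjusted p = 0.048). mt-Rnr1 differed by 0.33 (SE 0.31) and mt-Rnr2 by 0.49 (SE 0.32).

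**Figure D3:**
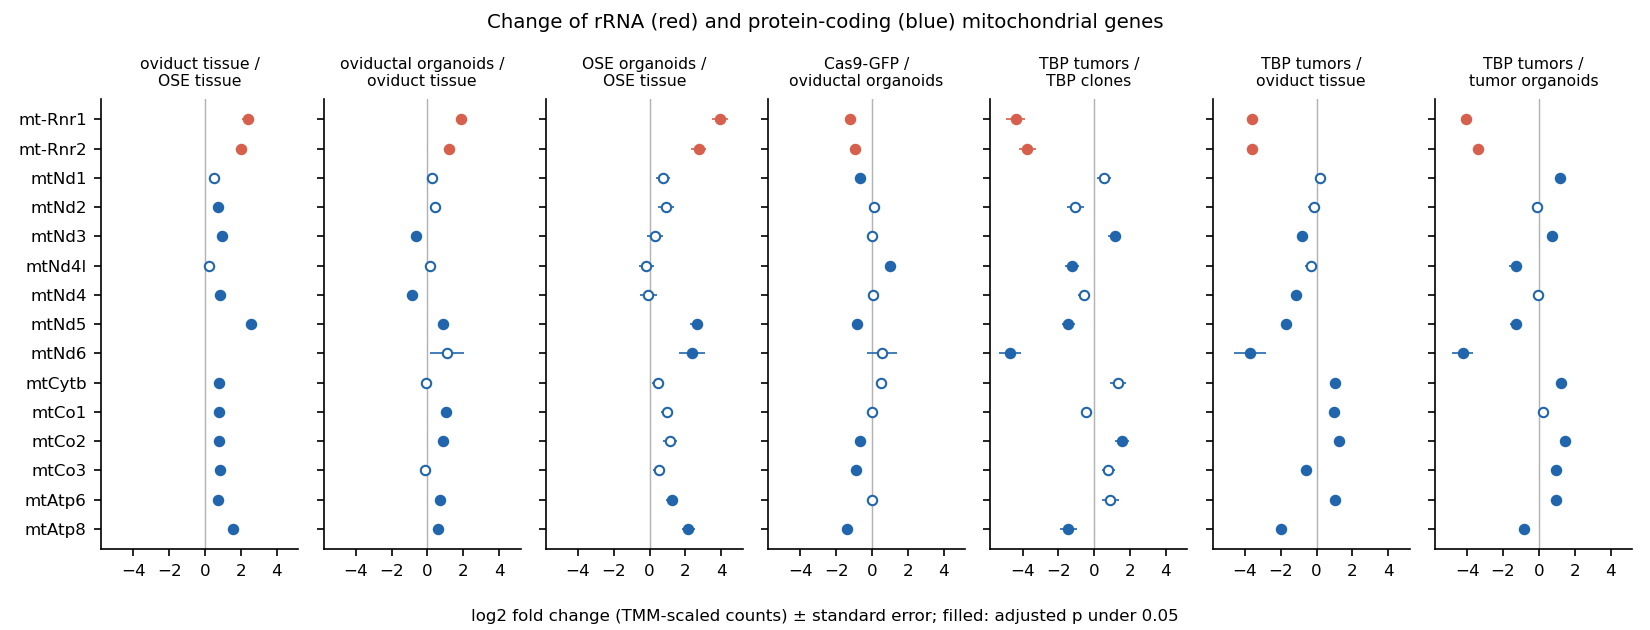
Log2 fold change (TMM-scaled counts, with standard error) of the 2 rRNA genes (red) and 13 protein-coding genes (blue) in 7 comparisons, the first-named group over the second; filled points have an adjusted p under 0.05 and a missing point was too low to be tested. The red points lie at -3.40 or below in the 3 comparisons with tumors, whose protein-coding genes lie on both sides of 0.

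Cas9-GFP organoids are the controls of the TBP clones, and differ from the wild-type oviductal organoids in strain and cassette. They were lower in both rRNA genes, with 7.21%, 9.39% and 10.1% of counts on mt-Rnr2 (log2 fold change -0.96, SE 0.21, adjusted p = 0.0062) and 1.07%, 1.40% and 1.495% on mt-Rnr1 (-1.25, SE 0.21, adjusted p = 0.0012), without overlap with the wild-type lines. Rn45s did not pass in this comparison (log2 fold change 0.06). Both ciliated markers tested were lower (median log2 fold change -3.35), 4 of 7 epithelial markers were lower and 1 higher, and both myeloid markers tested were higher, and their part in the result was not tested. mtAtp8 (-1.40), mtCo3 (-0.91), mtNd5 (-0.86), mtCo2 (-0.67), mtNd1 (-0.66) and the tRNA gene mt-Tw (-1.81) were lower as well. mtNd4l was higher, with 979, 1360.4 and 1397 CPM against 446 to 626 CPM (log2 fold change 1.01, SE 0.21, adjusted p = 0.0045). That made 1 higher and 8 lower of 17 members tested, beside 13% and 13.3% of 8323 genes. In the fit of all 27 libraries 0 of these 9 were called (adjusted p = 0.10 for mt-Rnr1 and 0.16 for mt-Rnr2), and 1 other member, mt-Tq, was called lower.

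The TBP clones were compared with these control organoids for the effect of mutation and selection. mt-Rnr2 had 1.91%, 10.3% and 11.9% of counts in the clones and mt-Rnr1 0.373%, 2.60% and 1.46%, so that clone 1 lay below and the others around or above the Cas9-GFP range. edgeR called 0 of 15 members in either direction, beside 0.389% higher and 0.428% lower of 7708 genes, and 1 member had an unadjusted p under 0.05. DESeq2 called 0 as well. The standard errors were 0.38 to 0.82 on the log2 scale, against 0.16 to 0.84 in the comparison of the Cas9-GFP with the wild-type organoids. Without clone 1 the log2 fold changes were 0.64 for mt-Rnr1 (adjusted p = 0.44) and 0.32 for mt-Rnr2 (adjusted p = 0.68), and again 0 members were called.

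In the tumors, mitochondrial rRNA was the lowest of the series. mt-Rnr2 made up 0.647% to 0.778% of the counts of the 6 tumors (median 0.707%) and mt-Rnr1 0.0591% to 0.105% (median 0.0846%). The highest tumor values lay below the lowest values of every other group, which were 1.64% for mt-Rnr2 and 0.121% for mt-Rnr1, both in OSE tissue 1. The 3 comparisons, which share the tumor libraries, gave the size of the difference. Against oviduct tissue, extracted in the same way, the log2 fold change was -3.62 (SE 0.15, adjusted p = 4.3e-07) for mt-Rnr2 and -3.58 (SE 0.24, adjusted p = 7.1e-06) for mt-Rnr1. Against the TBP clones it was -3.75 (SE 0.48, adjusted p = 0.00036) and -4.40 (SE 0.52, adjusted p = 0.00023), and without clone 1 -4.23 and -4.87. Against the tumor-derived organoids it was -3.40 (SE 0.24) and -4.04 (SE 0.29), both with an adjusted p of 5.3e-05. Rn45s fell in the same 3 comparisons, with log2 fold changes of -4.26 (adjusted p = 0.00049), -3.72 (adjusted p = 0.0055) and -4.08 (adjusted p = 0.00060). Its part in the result was not tested.

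The protein-coding genes of the tumors divided into those that rose, those that fell and those that did neither. mtCo2 had 16985 to 22236 CPM in the tumors (median 18399.8), against 6064, 6117 and 7121 CPM in oviduct tissue, 8512, 6735 and 2568 CPM in the clones and 6237, 6676, 6043 and 6865 CPM in the tumor-derived organoids. No tumor overlapped any of these. The log2 fold changes were 1.26, 1.55 and 1.48 (adjusted p = 0.00040, 0.0091 and 0.00036). mtCytb, the cytochrome b of complex III, had 15941 to 29579.6 CPM in the tumors (median 22079) and was higher than in oviduct tissue by 1.01 and than in tumor-derived organoids by 1.23 on the log2 scale (adjusted p = 0.0079 and 0.0081), while its difference of 1.32 from the clones did not pass (adjusted p = 0.051). mtAtp6 rose against oviduct tissue (1.02, adjusted p = 0.017) and tumor-derived organoids (0.95, adjusted p = 0.036). mtCo1 rose only against oviduct tissue (0.95, adjusted p = 0.011). Whether its change differed between the comparisons was not tested.

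mtNd5 fell in the 3 comparisons. It had 2151 to 3323 CPM in the tumors (median 2374), below each oviduct tissue library, and the log2 fold changes were -1.70 against oviduct tissue (SE 0.22, adjusted p = 0.00021), -1.44 against the clones (adjusted p = 0.015) and -1.27 against tumor-derived organoids (adjusted p = 0.018). The tumor range included T1-mes, which had 2308 CPM, and TBP clone 1, which had 3259 CPM. mtAtp8 fell by 1.97, 1.45 and 0.85 on the log2 scale (adjusted p = 0.00014, 0.038 and 0.022). mtNd6 had log2 fold changes of -3.71, -4.69 and -4.24 (adjusted p = 0.0064, 0.00038 and 0.00065), from levels that varied widely between libraries. mtNd4, mtNd3 and mtCo3 were lower than in oviduct tissue (-1.16, -0.83 and -0.61). mtNd3 and mtCo3 were higher than in tumor-derived organoids (0.73 and 0.97) and mtNd3 higher than in the clones (1.13). mtNd4l was lower than in the clones (-1.26) and the tumor-derived organoids (-1.29). mtNd1 was higher only than in tumor-derived organoids (1.16, adjusted p = 0.0032), and mtNd2 passed in none of the 3. In all, 4 members were higher and 9 lower of 16 tested against oviduct tissue, beside 23.7% and 22.4% of 10827 genes. Against the clones 2 were higher and 6 lower of 15, beside 20.1% and 11.7% of 10473 genes. Against tumor-derived organoids 6 were higher and 7 lower of 16, beside 15.1% and 12.3% of 10605 genes. Leaving out TBP tumor 1, TBP tumor 4 or TBP clone 2 in turn lowered the 8 calls against the clones to 5. With library totals alone the median of all genes shifted by 0.31 against oviduct tissue and by 0.22 against the clones, and mtCo3 was no longer called against oviduct tissue (adjusted p = 0.19).

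Among the tumors, TBP tumor 5 had the highest share of protein-coding counts, 17.1%, and the lowest rRNA share of mitochondrial counts, 4.06%, while its mt-Rnr2 (0.647%) lay close to that of the other tumors (0.684% to 0.778%). The same library had 1164 CPM of Cox6a2, a complex IV subunit of heart and skeletal muscle, against 7.09 to 745 CPM in the other tumors, and 60.3 CPM of Cox8b, another muscle form, against 0 to 32.8 CPM. These 2 genes were singled out after their values were seen, and both were at most 9 counts in every library outside the tumors. The part of muscle in the mitochondrial share was not tested.

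The organoids regrown from tumors had more mitochondrial rRNA than the tumors. mt-Rnr2 had 3.99%, 8.64%, 8.36% and 7.16% of counts in T1-mes, T2-epi, T3-mes and T4-epi, and mt-Rnr1 0.703%, 1.38%, 1.55% and 1.56%. T1-mes was the lowest in both. Against the TBP clones edgeR called 0 of 17 members, beside 0% higher and 0% lower of 9496 genes, with 0 members at an unadjusted p under 0.05, and DESeq2 called 0. mt-Rnr1 differed by -0.35 (SE 0.62) and mt-Rnr2 by -0.34 (SE 0.61). Between mes and epi lines, 2 against 2 and taken as unpaired, 0 of 17 members were called, beside 1% higher and 0.123% lower of 9775 genes. Of these members, 2 had an unadjusted p under 0.05. mtNd6 had a log2 fold change of 2.03 (SE 0.50, adjusted p = 0.14) with 193 and 74.0 CPM in the mes lines and 33.1 and 30.2 CPM in the epi lines, and DESeq2 called it (2.01, adjusted p = 0.021). Without T3-mes, which leaves 1 mes line that is assumed to vary like the epi lines, mtNd6, mt-Ts1 and mt-Rnr2 were called with log2 fold changes of 2.53, 3.89 and -1.06. In the same comparison 6 of 7 fibroblast markers were higher in the mes lines, and the part of that difference in these values was not tested.

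The composition of the protein-coding counts was examined apart from their total, as each gene's percent of the counts on the 13 genes. mtNd4 made up 29.6% to 35.9% in oviduct tissue and 28.9% to 35.6% in OSE tissue, 14.0% to 25.7% in all organoid libraries and 13.3% to 14.9998% in the tumors. mtNd5 made up 1.99% to 2.24% in OSE tissue, 1.72% to 2.35% in tumors and 2.14% in TBP clone 1, against 3.70% in T1-mes and 5.59% to 13.7% in the other libraries. The 10 libraries near 2% are those with low mitochondrial rRNA and low Rn45s. mtCo2 made up 12.97% to 17.0% in the tumors and at most 12.5% elsewhere, and mtCytb 15.6% to 18.3% in the tumors and at most 13.5% elsewhere. mtCo1 made up 3.62% to 4.26% in both tissues, 6.52% to 8.27% in tumors and 21.2% in TBP clone 3, the highest of all libraries. mtNd2 was highest in TBP clone 1 at 24.9%, against 5.67% to 13.8% elsewhere. mtNd4l, the small gene upstream of mtNd4, made up 0.858% to 1.78% in Cas9-GFP organoids, clones and tumor-derived organoids and 0.221% to 0.867% in all other libraries, an overlap of 1 library, T1-mes. mtCo3 made up 4.71% to 6.34% in the wild-type tissues and organoids and 2.20% to 4.37% in the rest. The organoids with the Cas9-GFP cassette and what was grown from them thus had lower shares of mtCo3 than the wild-type groups, without overlap. The shares are relative, so that a high share of a gene lowers the others. They are given with no test.

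**Figure D4:**
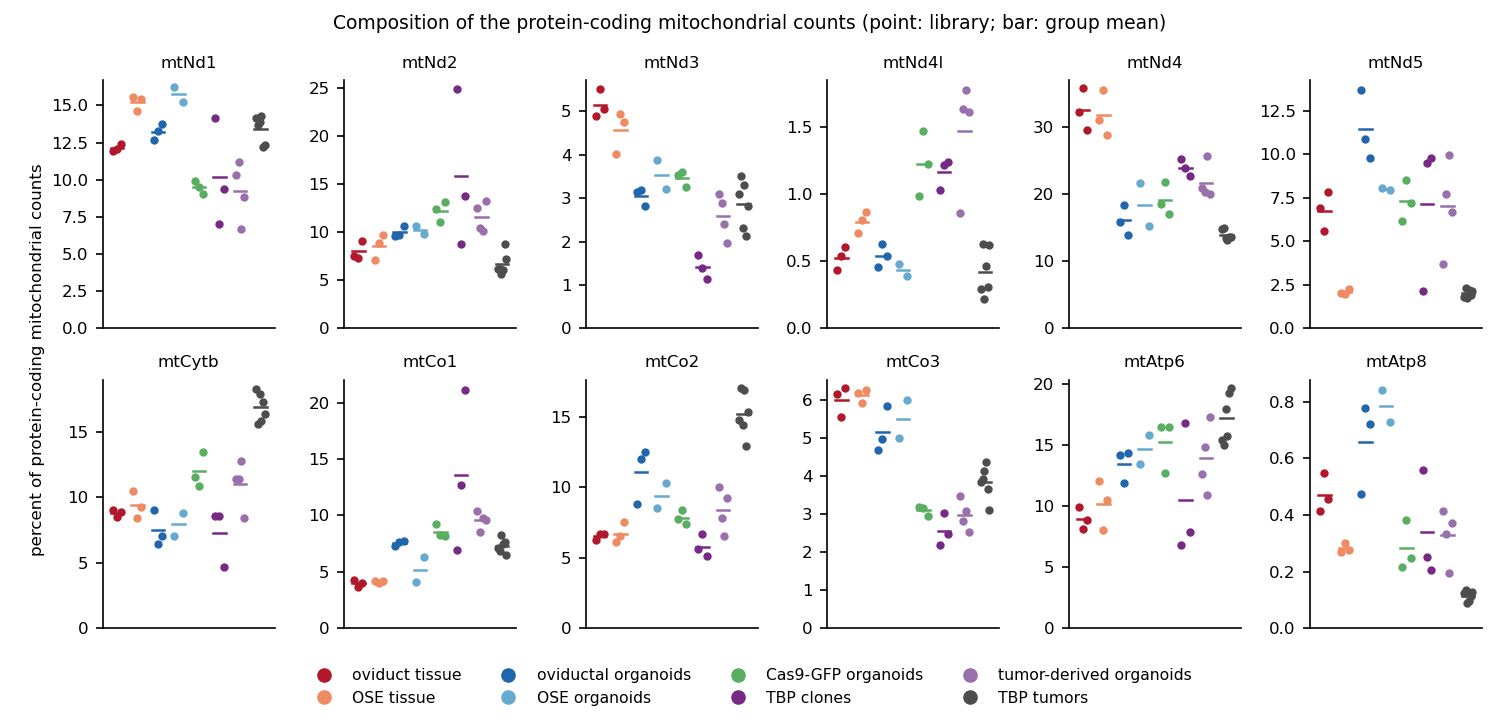
Percent of the counts on the 13 protein-coding mitochondrial genes taken by each of 12 genes (mtNd6, at most 0.407%, is not drawn); points are libraries, horizontal bars group means, and each panel starts at 0 on its own scale. mtCytb and mtCo2 are highest in the 6 tumors, mtNd4 in the 6 tissue libraries, and mtNd5 is near 2% in OSE tissue, tumors and TBP clone 1.

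mtNd6 is the protein-coding gene of the light strand (GRCm38 chromosome M, positions 13552 to 14070, minus strand), and 8 tRNA genes share that strand. It had 2 to 924 counts per library and varied widely within groups. In oviduct tissue it had 7.05, 6.06 and 135 CPM, in OSE tissue 8.28, 4.06 and 33.4 CPM, and in oviductal organoids 25.5, 40.5 and 214 CPM. In Cas9-GFP organoids it had 30.8, 48.3 and 374 CPM, and in TBP clones 24.3, 46.3 and 204 CPM. In each of these 5 groups of 3 the library numbered 3 was the highest. OSE organoids 1 and 2 had 38.2 and 91.0 CPM, and T1-mes, T2-epi, T3-mes and T4-epi 193, 33.1, 74.0 and 30.2 CPM. The tumors ranged from 1.31 to 7.13 CPM with a median of 3.58, on 2 to 22 counts. Over 7114 genes the deviations of same-numbered libraries from their group means correlated by between -0.012 and 0.13 across 30 pairs. These values describe genes within libraries and are given without a test. The 8 light-strand tRNA genes together had 1 to 84 counts per library. In oviductal organoids 1 to 3 they had 47, 27 and 21 counts, in Cas9-GFP organoids 8, 3 and 9, and in the TBP clones 1, 17 and 40.

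The 22 tRNA genes had 1864 counts in all 27 libraries, and 11 of them reached 50. tRNAs are short and carry no long poly(A) tail, and the values are given as they stand. mt-Tm, the tRNA for methionine between mtNd2 and the mt-Tq gene, had 522 of these counts, with 124 in TBP clone 3, and was above 3 counts in 21 libraries. mt-Tw had 260, mt-Tt 168, mt-Ts1 168 and mt-Tv 104. mt-Ts1 lies on the light strand beside mtCo1 and had 80 of its 168 counts in T1-mes, the next being 14 in T3-mes, 13 in TBP clone 3 and 12 in TBP clone 2. mt-Tc had 24 and 23 counts in OSE organoids 1 and 2, 7, 4 and 0 in oviductal organoids and at most 2 in every other library. Its log2 fold change from OSE tissue to OSE organoids was 4.18 (SE 0.66, adjusted p = 0.0043), and between oviductal and OSE organoids -2.68 (SE 0.91, adjusted p = 0.35). mt-Tq was likewise highest in OSE organoids, with 22 and 16 counts, against 12, 7 and 5 in oviductal organoids, and rose from OSE tissue by 2.50 on the log2 scale (adjusted p = 0.023). mt-Ti had 17 counts in TBP tumor 5 and at most 13 elsewhere. mt-Tg, mt-Tn and mt-Tp had 65 counts each, with at most 17 in a library. Summed over the 22, the level was 58.6 to 77.5 CPM in oviductal organoids, 101 and 89.1 CPM in OSE organoids and 6.92 to 22.7 CPM in tumors, against 25.5 to 38.8 CPM in oviduct tissue. mt-Tm fell in the tumors, by 2.38 on the log2 scale against oviduct tissue (adjusted p = 0.014) and by 2.96 against tumor-derived organoids (adjusted p = 0.0066), and mt-Ts2, mt-Ty, mt-Tf and mt-Tr, named after their values were seen, had at most 3 counts in any library.

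Nuclear genes for mitochondrial functions were described by lists. Mitochondrial ribosomal proteins, listed here by gene symbol, assemble on the 2 rRNAs. Of 74 tested against oviduct tissue, 17 were higher and 15 lower in the tumors, close to the 23.7% and 22.4% over all genes, with a median log2 fold change of -0.16 against 0.08 over all genes. Mrpl39 had a log2 fold change of -2.16 and Mrpl21 of 2.15 (adjusted p = 3.6e-05 and 0.015). Against the clones 4 were higher and 9 lower of 74, beside 20.1% and 11.7% over all genes, and against tumor-derived organoids 8 and 8 of 74, beside 15.1% and 12.3%. Of 10 genes for mitochondrial ribosome assembly tested, 4 were higher and 0 lower than in oviduct tissue, Eral1, a chaperone of the 12S rRNA, by 1.76 (adjusted p = 0.0018), Mrm1, a 16S rRNA methyltransferase, by 1.44 (adjusted p = 0.043) and Mtg1 by 1.41 (adjusted p = 0.025). Of 13 genes for mtDNA transcription and replication tested in the same comparison 2 were higher and 2 lower, Polg2, the accessory subunit of the mtDNA polymerase, with a log2 fold change of -1.79 (adjusted p = 0.0020), Mterfd1 of 1.42 (adjusted p = 0.0025) and Tefm, the mitochondrial transcription elongation factor, of -1.13 (adjusted p = 0.025). Against the clones 3 were higher and 2 lower of 14, Ccdc111 with -1.80 (adjusted p = 0.0038), Mterfd1 with 1.48 (adjusted p = 0.015) and Polrmt, the mitochondrial RNA polymerase, with -1.38 (adjusted p = 0.024). Against tumor-derived organoids 4 were higher and 1 lower of 15, Tefm with 1.22 (adjusted p = 0.039), Tfb2m, a transcription initiation factor, with 1.06 (adjusted p = 0.0089) and Polrmt with -1.01 (adjusted p = 0.014). Over all genes 23.7% were higher and 22.4% lower against oviduct tissue, 20.1% and 11.7% against the clones and 15.1% and 12.3% against tumor-derived organoids. Beside these shares the small counts of the list are not read as a result about it.

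Between the tissues, 1 gene for mtDNA transcription and replication was higher and 1 lower in oviduct tissue of 8 tested, Tefm with a log2 fold change of 1.24 (adjusted p = 0.0050) and Polrmt. Polrmt and Lrpprc, which stabilises mitochondrial mRNA, were higher in OSE tissue. Polrmt had 8.97, 8.48 and 16.0 CPM in oviduct tissue and 38.3, 43.3 and 37.0 CPM in OSE tissue (log2 fold change -1.47, SE 0.29, adjusted p = 0.00064). Lrpprc had 16.7, 15.8 and 19.4 CPM against 76.6, 58.2 and 68.6 CPM (-1.61, SE 0.23, adjusted p = 2.9e-05). Of 17 genes for mitochondrial content, such as import channels and carriers, 0 were higher and 7 lower in oviduct tissue, with a median of -0.39, and of 70 mitochondrial ribosomal proteins 4 were higher and 13 lower. Of 15 genes for mitochondrial RNA processing and stability 2 were higher and 4 lower. Over all genes 26.9% were higher and 24.3% lower, so that the share called lower was below that of all genes for the ribosomal proteins, near it for the RNA processing genes and above it for the content genes. The steroidogenic cells of the OSE tissue libraries, whose 7 markers were all lower in oviduct tissue, move with this difference, and their part in it was not tested.

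The nuclear subunits of complexes I, III, IV and V, partners of the mitochondrial proteins, had 20 higher and 13 lower of 72 between oviduct and OSE tissue, beside 26.9% and 24.3% of all genes. From tissue to organoids 22 of 73 were higher and 9 lower in oviductal organoids and 17 of 75 higher and 2 lower in OSE organoids, with medians of 0.23 and 0.39, beside 18.7% and 24.2% of all genes in the first and 14.5% and 18.6% in the second. In Cas9-GFP against wild-type organoids 2 were higher and 23 lower of 72, beside 13% and 13.3% of all genes, with Uqcrh at -1.88 and Ndufb6 at -1.63 (adjusted p = 1.5e-05 and 0.00014). In tumors against oviduct tissue 9 were higher and 30 lower of 76, beside 23.7% and 22.4% of all genes, Cox4i1 with a log2 fold change of -2.46 (SE 0.23, adjusted p = 4.0e-05), from 252, 282 and 367 CPM to between 38.6 and 82.0 CPM. Of the mitochondrial genes of the same complex, mtCo1 and mtCo2 were higher and mtCo3 lower in that comparison. Among regulators of mitochondrial biogenesis, Esrra and Ppargc1a, a nuclear receptor and its coactivator, rose from tissue to organoids in both origins, by 2.39 and 1.38 in oviduct (adjusted p = 0.00088 and 0.0056) and by 2.97 and 4.17 in OSE (adjusted p = 0.0062 and 0.0044). Ppargc1a had 2 to 4 counts per library in OSE tissue, and Esrra 1 to 8 counts in OSE tissue and 2 to 6 in oviduct tissue, so that these values rest on few reads. Both fell in Cas9-GFP against wild-type organoids, by 1.63 and 1.33 (adjusted p = 0.014 and 0.0083), and Ppargc1a was lower in tumors than in oviduct tissue (-2.25, adjusted p = 0.025). In TBP clones against Cas9-GFP organoids, mes against epi lines, tumor-derived organoids against clones and oviductal against OSE organoids, 0 genes of the lists for mitochondrial functions were called by edgeR.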

How the data were processed

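The authors deposited raw read counts per gene for CEL-Seq2 libraries sequenced on an Illumina NextSeq500. Reads were aligned with BWA to GRCm38, uniquely mapped reads in the direction of transcription were counted, and no correction by molecular identifiers was made. The annotation used for counting is not given in the sources used here. The 11 deposited samples hold 27 library columns. One OSE organoid lane had been removed by the submitters, and 1 spike-in row with 1 count was left out here.

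Counts were tested in R 4.3.3 with edgeR 4.0.16 (quasi-likelihood F-test, TMM factors, filterByExpr over the libraries compared) in 11 comparisons, with Benjamini-Hochberg adjustment over all genes tested and an adjusted p threshold of 0.05. The test was checked on simulated counts with 200 changed genes, picked at random and changed in both directions. In several comparisons far more genes were called, so that the check does not cover their shifts in composition. Shares and CPM used the library total. Alternatives were library totals, RLE factors, scaling without the mitochondrial genes, no filter, DESeq2 1.42.0, a fit of all 27 libraries, a replicate block and leaving out each library. The members and the gene lists were chosen with earlier results of these data known. All rRNA and protein-coding members that passed the filter and the tRNA genes with 50 or more counts were named. Genes named from a list are among its 3 called genes with the largest change, and not all of these are named. Libraries of a group were compared in 37 pairs, and their counts differed by a chi-square of at least 2.53 per gene. Amplified copies also raise this value, so that it cannot show that libraries are separate samples. Part of the targeted genes is not reported here. Figures were drawn with matplotlib 3.10.9.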

Additional observations from a re-analysis of the deposited data

Results flagged for a closer look

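Of 49 values checked for a library far from the others of its group, 3 were found. Chance gives about 1 in 20 of the values checked, so that 3 of 49 is near that rate. Only the tumors and the tumor-derived organoids had enough libraries for this check. Values of tRNA genes with at most 3 counts in every library of a group were not checked. mt-Ts1 had 39.3 CPM in T1-mes against 1.46 to 6.86 CPM in the other 3 tumor-derived organoid lines. mtNd1 had 9554 CPM in T2-epi against 6179.7 to 6591 CPM in the other 3 lines. mt-Ti had 5.51 CPM in TBP tumor 5 against 0 to 1.18 CPM in the other 5 tumors, on 17 counts.

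The change from tissue to organoids differed between oviduct and OSE in 4 members by an interaction term in edgeR, added after the data had been seen. The difference, oviduct minus OSE on the log2 scale, was -1.98 for mt-Rnr1 (adjusted p = 0.023), -1.44 for mt-Rnr2 (adjusted p = 0.040), -1.46 for mtAtp8 (adjusted p = 0.041) and -1.62 for mtNd5 (adjusted p = 0.042). The granulosa and steroidogenic markers of OSE tissue differ along the same axis. So does Rn45s, whose log2 fold change from tissue to organoids was -0.43 in oviduct, not called, and 4.41 in OSE. Their part in it was not tested. The extraction differed between tissue and organoids in both origins alike, and its part was not tested either.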

How the results depend on the processing

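The 73 calls of a member in a comparison gave 437 values in the other settings, of which 394 stayed past the threshold, 43 did not and 0 changed direction. The fit of all 27 libraries accounted for 24 of the 43 and library totals for 14. In the fit of all libraries, 6 members were called between the tissues, 4 between oviductal organoids and oviduct tissue, 1 between Cas9-GFP and wild-type oviductal organoids and 17 between tumors and clones. Totals gave 5 between the tissues. Without the filter 14 were called between oviductal organoids and their tissue and 14 between tumors and clones. DESeq2 called 1 member between oviductal and OSE organoids and 1 between mes and epi lines. The cause of these changes was not tested. Totals moved the median of all genes by 0.21 for Cas9-GFP against wild-type organoids and 0.14 for tumor-derived organoids against clones, and RLE by 0.13 for tumors against clones.

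With T1-mes and T2-epi, and T3-mes and T4-epi, as a replicate block, since each pair shares a deposited sample, 0 members were called between mes and epi lines. Same-numbered libraries of different groups correlated by -0.012 to 0.13 in their deviations (7114 genes, 30 pairs, 3 above 0.1). Differently numbered libraries were not compared in this way, and mtNd6 was highest in number 3 in each of the 5 groups of 3. The numbers were not taken as pairs, and what same-numbered libraries share was not tested.

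Leaving out each library in turn gave 10 to 13 calls between the tissues, 7 to 11 for oviductal organoids against tissue, 4 (without OSE tissue 2) to 15 (without OSE organoids 2) for OSE organoids against tissue, 0 to 1 (without OSE organoids 2) between the organoids, 7 to 8 for Cas9-GFP against wild-type organoids, 0 to 0 for clones against Cas9-GFP organoids and for tumor-derived organoids against clones, and 0 to 3 (without T3-mes) for mes against epi lines. For tumors it gave 5 (without TBP clone 2, TBP tumor 1 or TBP tumor 4) to 9 against clones, 9 to 12 against oviduct tissue and 10 to 13 against tumor-derived organoids. In all, 70 of 530 such values lost the call and 0 changed direction.

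Without the rRNA genes in numerator and denominator the mitochondrial share was 10.7% in oviduct tissue, 12.2% in oviductal organoids, 9.79% in OSE organoids, 11.3% in Cas9-GFP organoids, 10.98% in clones, 8.62% in tumor-derived organoids, 12.8% in tumors, then the highest group, and 7.32% in OSE tissue, the lowest. Depth limits TBP clone 1, and mtNd6 and the tRNA genes in most libraries.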
